A study of Sus scrofa with 8 samples.

Results

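Genes of cholesterol synthesis and of its control were described in the livers of young and old sows. They were chosen by name, with earlier results of these data known, as HMGCS1, MVD, IDI1, FDFT1, SQLE, LSS, SREBF2 and INSIG1. Of these 8 genes, 7 had an identifier among the 21607 of the mRNA table. No identifier of MVD was in the mRNA table, and MVD was dropped. The set was labelled as covering LDL uptake as well, but none of the 8 genes acts in LDL uptake, so genes of that step were taken from a wider list of 33 cholesterol genes, of which 24 had an identifier. Age was compared within 1 breed and sex. The livers came from 2 Yanan sows at 180 days, called young, and from 2 others at 8 years, called old. They were described as healthy and not closely related, and food was withheld from all 4 for the night before slaughter. The paper states that the young sows had never given birth, whereas the old sows had done so over many years. Age and reproductive history therefore cannot be told apart here. Each liver gave 1 rRNA-depleted RNA-seq library and 1 small RNA-seq library, so each age group rests on 2 animals.

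Cholesterol is built in the liver from acetyl-CoA. Acetyl-CoA units are joined to HMG-CoA and turned into mevalonate, further enzymes make isoprenoid units from it, and these are joined into squalene, closed into the ring of lanosterol and trimmed to cholesterol. When membranes of the endoplasmic reticulum hold little sterol, the escort protein SCAP carries SREBP-2, the product of SREBF2, to the Golgi, where it is cut and released to switch on the genes of the pathway, SREBF2 itself among them. When sterol is plentiful, INSIG proteins hold SCAP and SREBP-2 back. A liver can thus raise its cholesterol supply both by synthesis and by uptake of LDL from the blood.

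The deposited values were reads scaled to the size of each library (CPM) and carry no gene length, so levels of different genes were not compared. Reads on listed mRNAs numbered 37555696 and 37125093 in young replicates 1 and 2, against 22482241 and 24866406 in old replicates 1 and 2. The listed values summed to 408898 and 428910 CPM in young and to 365330 and 346173 CPM in old livers. The 7 genes together held from 5222 to 13251 reads per library. Of 10 hepatocyte markers, 9 had an identifier, and all 9 were above 0 in every library. Their levels summed to 47480 and 53004 CPM in young replicates 1 and 2, and to 33107 and 39170 CPM in old replicates 1 and 2. Old replicate 1 stood apart from the other 3 libraries in interferon-stimulated genes. The 20 genes of that list with an identifier summed to 2225 CPM in old replicate 1 and to between 82.5 and 123 CPM elsewhere. Fold changes are differences of group means on log2(CPM + 1), old minus young, from limma, which understate the change of genes with low values. A gene was called if its log2 fold change exceeded 1 in either direction and its adjusted p-value was under 0.05. Tissue was sequenced in bulk, so fewer cells of a type and less RNA per cell cannot be told apart.

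The 7 genes had higher mean levels in old livers, without exception, and the median log2 fold change was 0.93, against -0.02 over all 16898 mRNAs tested. None of the 7 was called by limma or by either test of edgeR, while limma called 0% of all tested mRNAs and the exact test of edgeR 3.16%. At an unadjusted p-value under 0.05, 4 of the 7 genes were higher in old livers (IDI1, SQLE, SREBF2 and FDFT1) and none was lower, whereas the share of all tested mRNAs was 6.78% higher and 8.93% lower. The balance over all mRNAs depended on scaling, as 43.1% of the mRNAs with such a p-value were higher with the deposited scaling, 61.0% with TMM scaling and 59.0% with median-ratio scaling. With any 1 library left out, fewer of the 7 genes were higher at such a p-value, and the share of all tested mRNAs higher also fell. The median log2 fold change of the 7 genes was 0.93 without young replicate 1 and 1.07 without young replicate 2. It was 1.17 without old replicate 1 and 1.02 without old replicate 2. Both old livers were above both young livers for 6 of the 7 genes, against 24.4% of all tested mRNAs, and for none were both old livers below both young livers, against 25% of all tested mRNAs. For 5 of these 6 genes, the gap was also wider than the exact 95% Poisson intervals of the reads, which cover counting error alone, and for LSS it was not. With 2 libraries against 2, an exact two-sided permutation test of a single gene cannot go below p = 0.333.

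**Figure D1:**
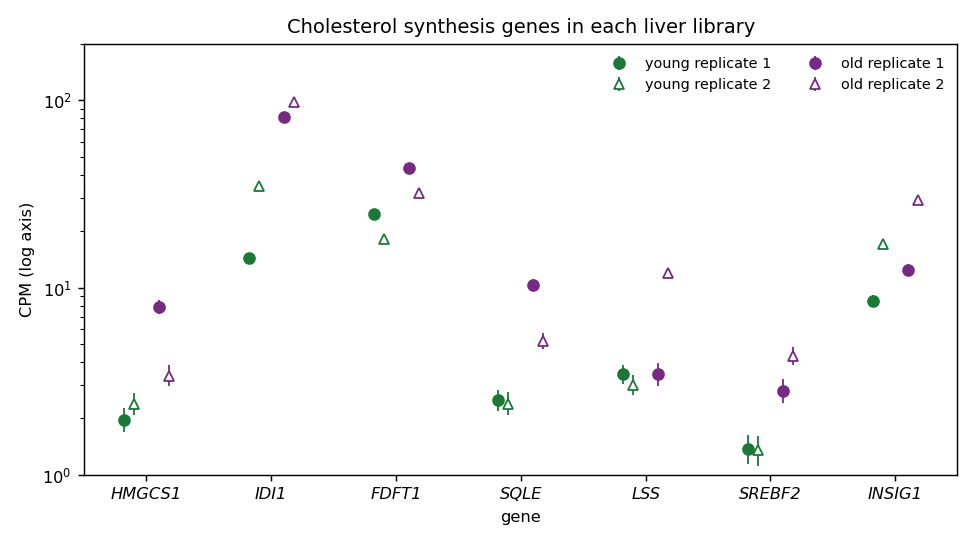
CPM of each of the 7 genes in each library on a log axis, with circles for replicate 1, triangles for replicate 2, green for young and purple for old livers, and bars for the exact 95% Poisson interval of the reads, which is narrower than the symbol for the higher values. The old libraries lie above the young ones for HMGCS1, IDI1, FDFT1, SQLE and SREBF2, whereas LSS and INSIG1 stand out in old replicate 2 only.

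HMGCS1 and IDI1 act in the early steps. HMGCS1 (ENSSSCG00000016872) encodes the cytosolic HMG-CoA synthase, which condenses acetoacetyl-CoA with acetyl-CoA. Replicates 1 and 2 held 1.97 and 2.39 CPM among young livers, against 7.90 and 3.38 CPM among old livers, an order kept in all pairs below. Both old livers were above both young livers, old replicate 1 by far the more. The log2 fold change was 0.98 (standard error, SE, 0.42, adjusted p = 0.403), slightly less than the distance of 1.02 between the old livers on the same scale. It was 0.47 without old replicate 1 and 1.49 without old replicate 2. IDI1 (ENSSSCG00000029066) encodes the isomerase that makes dimethylallyl diphosphate from isopentenyl diphosphate. Its levels were 14.5 and 35.0 CPM in the young livers and 81.5 and 98.0 CPM in the old livers. IDI1 had the highest log2 fold change of the 7 genes, 1.94 (SE 0.50, adjusted p = 0.266), which 1.02% of all tested mRNAs exceeded. The lower old liver was 2.33 times the higher young liver, and the young livers differed from each other 2.42-fold.

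FDFT1, SQLE and LSS act in succession to make squalene and turn it into lanosterol. FDFT1 (ENSSSCG00000026044), squalene synthase, measured 24.6 and 18.1 CPM in young against 43.7 and 32.2 CPM in old livers. The groups did not overlap, and the spread was alike in both, with a 1.36-fold difference within each pair. The log2 fold change was 0.80 (SE 0.26, adjusted p = 0.314). SQLE (ENSSSCG00000005970), the squalene epoxidase and a rate-limiting enzyme of the pathway, measured 2.50 and 2.40 CPM in young against 10.3 and 5.19 CPM in old livers. The young livers were nearly equal, and even the lower old liver was 2.07 times the higher young one. Its log2 fold change was 1.28 (SE 0.36, adjusted p = 0.279), and 0.84 without old replicate 1.

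LSS (ENSSSCG00000021418), the lanosterol synthase that closes the sterol ring, measured 3.44 and 3.02 CPM in young against 3.45 and 12.0 CPM in old livers. Old replicate 1, with 212 reads, could not be told from young replicate 1, with 316 reads, as their 95% Poisson intervals were 2.997 to 3.94 CPM and 3.07 to 3.84 CPM. The log2 fold change of 0.85 (SE 0.62, adjusted p = 0.595) thus rested on old replicate 2. It was 0.07 without old replicate 2 and 1.62 without old replicate 1.

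SREBF2 and INSIG1 control the pathway. SREBF2 (ENSSSCG00000026092) was the most even of the 7 genes among young livers, at 1.37 and 1.35 CPM (126 and 117 reads), against 2.81 and 4.30 CPM (173 and 309 reads) among old livers. Its lower old value was 2.05 times the higher young value. The log2 fold change was 0.93 (SE 0.21, adjusted p = 0.251), and of the 7 genes SREBF2 had the smallest adjusted p-value. INSIG1 (ENSSSCG00000016420), itself a target of SREBP-2, measured 8.48 and 17.2 CPM in young against 12.4 and 29.4 CPM in old livers. The groups overlapped, as old replicate 1 lay between the young livers. The log2 fold change was 0.62 (SE 0.60, adjusted p = 0.688). It was 0.03 without old replicate 2 and 1.21 without old replicate 1.

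**Figure D2:**
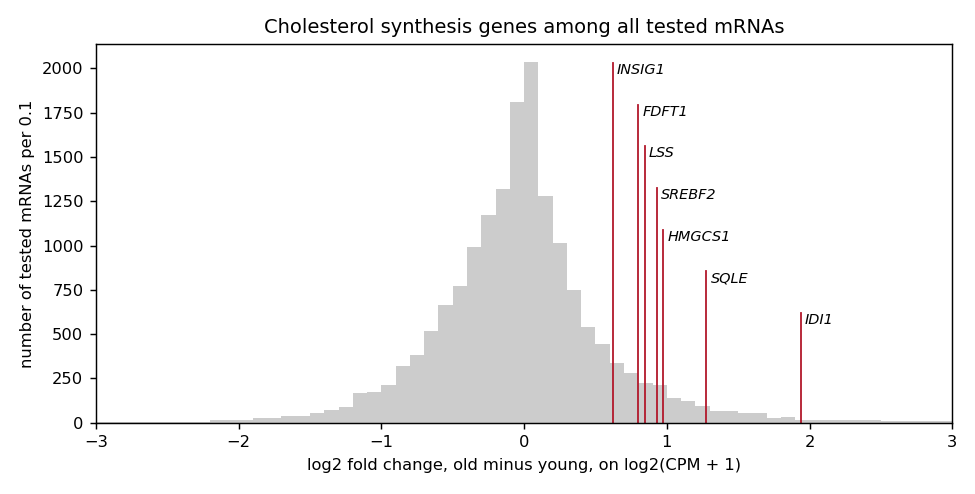
Distribution of the log2 fold changes (old minus young, on log2(CPM + 1)) of the 16898 tested mRNAs in bins of 0.1, with a line at each of the 7 genes, whose heights have no meaning. The 7 genes lie between 0.62 and 1.94, and 53 mRNAs lie beyond the axis, which ends at 3 in either direction.

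The fold changes of HMGCS1, LSS and INSIG1 were smaller than the difference between the old livers, and those of IDI1, FDFT1, SQLE and SREBF2 exceeded the differences within both age groups. On log2(CPM + 1), the old livers were farther apart than the young livers for HMGCS1, SQLE, LSS, SREBF2 and INSIG1, the young livers were farther apart for IDI1, and the distances were alike for FDFT1 (0.43 in old and 0.42 in young livers). The old livers also ranked the genes differently. HMGCS1, FDFT1 and SQLE were highest in old replicate 1, at 3.62, 2.05 and 4.21 times the young mean, against 1.55, 1.51 and 2.12 times in old replicate 2. IDI1, LSS, SREBF2 and INSIG1 were highest in old replicate 2, at 3.97, 3.70, 3.16 and 2.29 times the young mean, against 3.30, 1.07, 2.06 and 0.967 times in old replicate 1. Old replicate 2 exceeded both young livers for all 7 genes, and old replicate 1 did so for 6 of the 7. Old replicate 1 was also the library with the high interferon-stimulated genes, whose part in these differences was not tested. Without old replicate 1, the remaining old liver exceeded both young livers for 7 of the 7 genes and for 34.7% of all tested mRNAs.

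**Figure D3:**
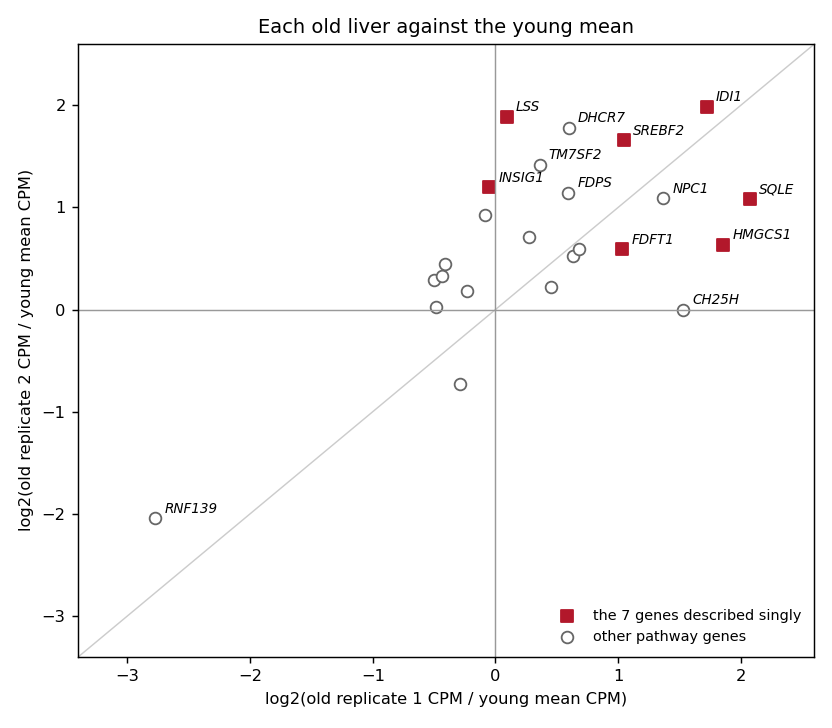
Each point is 1 of the 24 reported genes of the cholesterol list, placed by its log2 ratio of old replicate 1 (x axis) and old replicate 2 (y axis) to the young mean in CPM, with red squares for the 7 genes described singly and the diagonal for equal ratios. SQLE and HMGCS1 lie to the right of the diagonal, LSS and INSIG1 lie near 0 on the x axis and high on the y axis, and RNF139 lies low on both.

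Along the wider list, 19 of the 24 genes reported here had a log2 fold change above 0 and 5 below 0, with a median log2 fold change of 0.49. Of all tested mRNAs, 47.1% were above 0, a share that also stands beside the counts by step below. With TMM scaling the numbers of the 24 genes above and below 0 were 21 and 3, as MSMO1 and SCAP turned from just below to just above 0. They were 17 and 7 without young replicate 1 and also without old replicate 2, and 22 and 2 without old replicate 1. The share of 47.1% holds for the deposited scaling with all libraries. Over all tested mRNAs, the median log2 fold change was -0.02 there and 0.04 with TMM scaling. It was 0.02 without young replicate 1, -0.05 without old replicate 2 and -0.06 without old replicate 1. None of the 24 was called by limma or by either test of edgeR, at the shares of all mRNAs given above. Both old livers were above both young livers for 13 of the 24, and below for 2, or for 15 and 1 with TMM scaling, where 29.3% of all tested mRNAs were above and 18.9% below. Without old replicate 2, the other old liver was above both young livers for 14 and below for 7, against 35.5% and 35.4% of all tested mRNAs. Leaving out the 7 genes described above, both old livers were above both young livers for 7 of 17 and below for 2. The share of 41.2% compares with the 24.4% of all tested mRNAs given above. Whether the gaps of these 17 genes exceed counting error was not assessed. Of the 17, 12 had a log2 fold change above 0 and 5 below 0, with a median of 0.33. At an unadjusted p-value under 0.05, 2 of the 17 were higher (CYP51A1 and NPC1) and 1 was lower (RNF139), counts that lie near the 6.78% and 8.93% of all tested mRNAs.

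Among the early steps, FDPS, the farnesyl diphosphate synthase that acts after IDI1, measured 11.2 and 17.9 CPM in young against 21.9 and 32.1 CPM in old livers (0.86, SE 0.34, adjusted p = 0.372). ACAT2, the cytosolic thiolase, and MVK, the mevalonate kinase, overlapped between the groups, with log2 fold changes of 0.24 and 0.40. ACAT2 had nearly equal mean levels of 16.1 CPM in young and 15.98 CPM in old livers, and its log2 fold change was -0.66 without young replicate 1. That of MVK was -0.08 without old replicate 2. Of the 5 genes of these steps reported here, HMGCS1, IDI1 and FDPS were higher in both old livers, against 24.4% of all tested mRNAs. Leaving out the genes described singly, this held for 1 of 3, FDPS.

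The steps from lanosterol to cholesterol were mixed. Of the 7 genes reported here, the log2 fold change was above 0 for 4 and below 0 for 3, MSMO1 among the latter with the deposited scaling and not with TMM, and the median log2 fold change was 0.31. CYP51A1, the lanosterol demethylase, measured 12.2 and 15.7 CPM in young against 21.6 and 20.03 CPM in old livers. Its log2 fold change was 0.55 (SE 0.17, adjusted p = 0.305). DHCR7, which catalyses the last step of one branch, measured 7.02 and 8.42 CPM in young against 11.7 and 26.5 CPM in old livers, highest in old replicate 2 as LSS and INSIG1 were. HSD17B7 and SC5D also did not overlap, the first higher in old livers (0.31) and the second lower (-0.47), while TM7SF2 (0.96), MSMO1 (-0.10) and NSDHL (-0.21) did. Of these 7 genes, 3 were higher and 1 was lower in both old livers, against 24.4% and 25% of all tested mRNAs.

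Of 6 genes reported here of sterol sensing and transcriptional control, 4 had a log2 fold change above 0 and 2 below 0, of which SCAP was above 0 with TMM scaling. SCAP, which carries SREBP-2, measured 3.57 and 3.56 CPM in young against 2.63 and 4.47 CPM in old livers, on both sides of the young values. MBTPS1, the first protease that cuts SREBP-2, measured 4.81 and 4.62 CPM in young against 5.69 and 7.71 CPM in old livers (0.42, SE 0.18, adjusted p = 0.410). RNF139, a ubiquitin ligase of the endoplasmic reticulum that binds INSIG1, had the lowest log2 fold change of the list, -1.65 (SE 0.45, adjusted p = 0.274), with 9.18 and 3.93 CPM in the young livers and 0.959 and 1.59 CPM in the old livers. CH25H, which makes 25-hydroxycholesterol, a sterol that blocks SREBP-2 processing, was at 1.002 CPM in young replicate 1 and listed at 0 in young replicate 2, with old livers at 1.45 and 0.501 CPM.

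Of the genes of LDL uptake and intracellular cholesterol movement, 3 are reported here, and MYLIP and NPC1 did not overlap between the groups. These 2 of 3 genes were higher in both old livers, against 24.4% of all tested mRNAs. MYLIP, a ubiquitin ligase that limits LDL uptake, measured 1.002 and 0.624 CPM in young against 1.30 and 1.23 CPM in old livers. Its log2 fold change was 0.33 (SE 0.16, adjusted p = 0.445). These values rest on 92 and 54 reads in young and 80 and 88 reads in old livers, and the gap was not checked against counting error. NPC1, which releases LDL cholesterol from lysosomes, measured 0.479 and 0.566 CPM in young against 1.35 and 1.11 CPM in old livers (0.55, SE 0.13, adjusted p = 0.251). NPC2, its partner in lysosomes, overlapped, and its log2 fold change of 0.02 was -0.12 without young replicate 1 and -0.38 without old replicate 2.

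**Figure D4:**
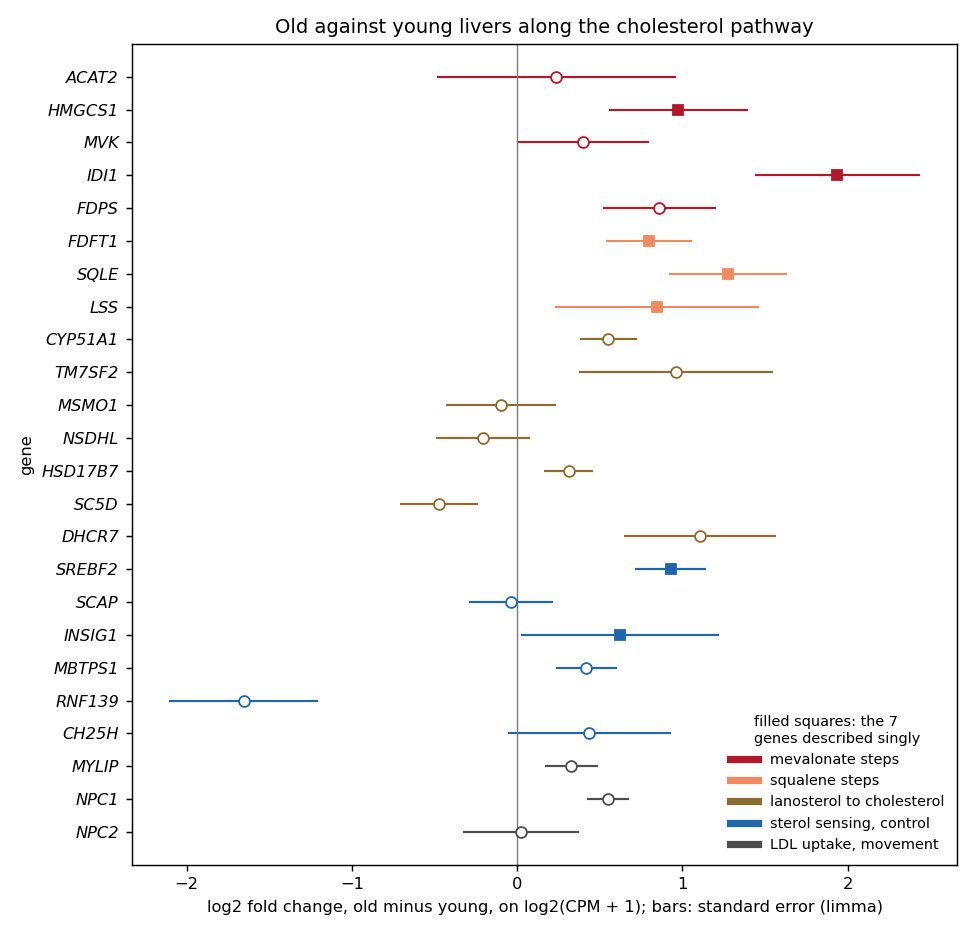
Log2 fold change (old minus young, on log2(CPM + 1)) of the 24 reported genes in the order of the pathway, with bars for the standard error from limma, colours for the step and filled squares for the 7 genes described singly. The 8 genes shown from ACAT2 to LSS lie to the right of 0, and the later steps lie on both sides of it.

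The mRNAs outside this list whose pattern over the 4 libraries was nearest to the mean pattern of the 7 genes were RARRES1, NCF1, TSPAN4, MRPL28 and RAD51B, out of 6078 with a symbol and a mean of at least 1 CPM. Nearness was the Euclidean distance between log2(CPM + 1) values centred over the 4 libraries, which was 0.09 for RARRES1 and 0.13 for RAD51B. SREBF2 was the nearest of the 7 genes themselves to their mean pattern, at 0.31, and IDI1 the farthest, at 1.12. RARRES1, a retinoic acid responsive gene, measured 3.70 and 4.33 CPM in young against 8.52 and 9.29 CPM in old livers. With 4 libraries, many genes can share such a pattern.

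An intron of SREBF2 encodes miR-33a, which is known to repress cholesterol export genes. In the small RNA libraries, miR-33a-5p had 13 and 12 reads in the young livers and 4 and 26 reads in the old livers, a deposited signal of 17.3, 11.5, 4.55 and 30.9. The 2 old livers lay on opposite sides of the young livers. Their exact 95% Poisson intervals, 1.09 to 10.24 reads in old replicate 1 and 17.0 to 38.1 reads in old replicate 2, did not overlap. In reads, each of these intervals overlapped those of both young livers, 6.92 to 22.2 in replicate 1 and 6.20 to 21.0 in replicate 2. miR-33a-3p had at most 4 reads in any library, and its difference between ages was not detectable at this depth.

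Markers of other liver cells were set beside these values, and their part in the differences was not tested. Of 9 hepatocyte markers, 3 were lower in both old livers than in both young livers and none was higher, against 25% and 24.4% of all tested mRNAs, which also stand beside the counts of the lists that follow. Macrophage markers summed to 204 and 226 CPM in young and to 290 and 284 CPM in old livers, with 3 of 4 higher in both old livers. T and NK cell markers summed to 5.48 and 7.11 CPM in young and 16.3 and 8.56 CPM in old livers, also with 3 of 4 higher. Endothelial markers were at 33.9 and 30.4 against 66.2 and 38.4 CPM, with 1 of 4 higher. They did not move together in old replicate 1. There, LYVE1 (36.5 CPM) and PECAM1 (23.8 CPM) were above both young livers, KDR (2.26 CPM) was below both, and STAB1 (3.62 CPM) lay between them. Stellate cell and fibroblast markers were at 14.1 and 30.9 against 9.04 and 35.5 CPM, with none apart. B and plasma cell markers stayed at or below 1.93 CPM in sum, with 1 of 3 lower, and cholangiocyte markers at or below 0.752 CPM, with 1 of 2 higher. Erythroid markers summed to between 307 and 622 CPM, with 2 of 3 (HBB and ALAS2) lower in both old livers and 1 (HBM) higher, and the muscle marker ACTA1 was at or below 0.863 CPM.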

How the data were processed

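The mRNA and miRNA tables were used. Per the submitters' processing notes and the study's methods, the authors used TopHat2 2.0.14 to align the cleaned reads to the Sscrofa10.2 build, assembled them with StringTie 1.2.3 and quantified them with Salmon 0.6.0. The values the authors deposited as TPM are CPM here, since at least 99.987% of those above 0 per library were whole multiples, to within 0.1 reads, of a single step in each library. The miRNA signal was made by the authors with mirdeep2 and miRBase21 and scaled to a total that is not stated, and whole reads were recovered in the same way.

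Symbols were available for 11654 of 21607 identifiers. Old and young livers were compared with limma 3.58.1 in R 4.3.3 on log2(CPM + 1), over the 16898 mRNAs above 0 in at least 2 libraries, two-sided, with Benjamini-Hochberg adjustment over all of them. The exact and quasi-likelihood tests of edgeR 4.0.16 were run on recovered reads (rounded to whole numbers). Python 3.11.15 made the summaries and plots. The genes and lists were chosen with earlier results of these data known. Genes of the cholesterol list were named if the age groups did not overlap, if the unadjusted p-value was under 0.05, or if they were on a short list of sterol genes, and others only by their fold change. Some genes of that list are not reported here and entered no count, median or plot of the list, which were recomputed over the rest after the values were known. Marker lists covered hepatocytes, cholangiocytes, macrophages, B and plasma cells, T and NK cells, stellate cells and fibroblasts, endothelial cells, erythroid cells, skeletal muscle and interferon-stimulated genes. The labels do not say more of the replicates than that each is a separate liver. The p-values rest on the spread between 2 animals per age, which limma and edgeR draw toward the spread of all tested mRNAs. The lncRNA table gives no gene symbols and the circRNA table names no host gene, and neither was used here. Sequences and a planned search of promoters for sterol regulatory elements were not analysed here.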

Additional observations from a re-analysis of the deposited data

How the results depend on the processing

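All 7 genes kept their direction in each of 13 alternatives and none was called in any, with adjusted p-values down to 0.0776 (IDI1, exact test of edgeR). The median log2 fold change of the 7 genes was 1.22 with a pseudocount of 0.1, 1.06 with TMM scaling and 1.57 with either test of edgeR, and ranged from 0.93 to 1.17 with 1 library left out. That of the wider list was 0.87 with either test of edgeR and ranged from 0.38 to 0.59 with 1 library left out. Over all mRNAs, limma called 0, or 2 with a mean of at least 1 CPM required, and the exact test of edgeR 534, with a median log2 fold change of 0.12 over all mRNAs. The quasi-likelihood test called 0. With 1 library left out, an age group has a single library that is assumed to vary like the other group. With the replicate number as a block, 0 genes were called, and SREBF2 kept a log2 fold change of 0.93 (adjusted p = 0.344, limma). The planned search of promoters for sterol regulatory elements and its looser match were not run. The labels do not say that livers of equal number are paired, and such livers deviated together only weakly (r = 0.09 across genes). Whether equal numbers share a batch cannot be told from this single value. The count of 6 genes with both old livers above both young livers was 6 or 7 under the other scalings and with each library left out, where the share of all tested mRNAs rose from 24.4% to between 28.6% and 40.7% (without young replicate 1). These alternatives were added after the data had been seen. The number of animals, 2 per age, limits these results, and counting error limits LSS and miR-33a in addition. For the other 17 genes of the wider list, counting error was not assessed.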
